A study of Mus musculus with 24 samples.

Results

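The mRNA levels of 7 genes of insulin signalling and its downstream kinases and transcription factors were followed across all conditions of an RNA-seq series in mouse embryonic fibroblasts. The genes are Irs1 and Irs2, Pik3r1, Sgk1, Foxo1 and Foxo3, and Ddit4. They were taken by name from the 47480 genes of the count table, and all 7 were among the 14772 genes that passed the filter on low counts. The cells were wild type, and each of the 24 libraries belonged to 1 of 8 groups of 3. A group received siCTRL or siCop1 (an siRNA named for the ubiquitin ligase Cop1), was given DMSO or KL001, and was kept without or with the agent labelled Dexa. No group lacked an siRNA, and none lacked both DMSO and KL001. KL001 is a small molecule known to bind and stabilise cryptochromes, the repressors of the circadian clock. The sources used here give no doses, exposure times, siRNA sequences, mouse strain or embryonic age.

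Insulin and insulin-like growth factors act through receptors that phosphorylate the adaptors IRS1 and IRS2. These recruit phosphoinositide 3-kinase, whose main regulatory subunit is encoded by Pik3r1, and the lipid it makes activates the kinases AKT and SGK1. Both kinases phosphorylate the transcription factors FOXO1 and FOXO3 and keep them out of the nucleus. DDIT4, also called REDD1, restrains the growth-promoting kinase complex mTORC1 through the TSC complex. Sgk1 and Ddit4 are textbook targets of the glucocorticoid receptor, and COP1 marks transcription factors and other proteins for degradation.

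In the GENCODE annotation of GRCm38, Irs1 spans chr1:82233101-82291416 and Irs2 chr8:10984681-11008458, both on the minus strand. Pik3r1 spans chr13:101680563-101768217 on the minus strand and Foxo1 chr3:52268336-52353221 on the plus strand. Chromosome 10 holds the other members: Sgk1 at chr10:21882184-21999903 on the plus strand, and Foxo3 at chr10:42181841-42276755 and Ddit4 at chr10:59949669-59951834 on the minus strand. Counts were summed per gene, so transcripts of 1 gene are not separated.

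Libraries held 21409988 to 27875023 counted reads (median 25337292). The smallest count of any of the 7 genes in any library was 921 (Irs2) and the largest 12589 (Sgk1). Rfwd2, the symbol under which the table lists Cop1, was at 24.99 to 29.7 CPM (counts scaled to library size) in the 12 siCTRL libraries and at 4.33 to 5.79 CPM in the 12 siCop1 libraries. Averaged over settings, the glucocorticoid-responsive genes Fkbp5 and Tsc22d3 rose with Dexa by 3.96 and 2.73 on the log2 scale. Cry1, which encodes a cryptochrome, fell by 1.93 with KL001. The labels do not say whether replicates came from separate cultures, so p-values measure the spread between these libraries, which may be technical. All 11 fibroblast markers were tested and summed to 41960 to 59150 CPM. Levels within that list were uneven: Col1a1 alone was at 14650 to 23500 CPM, whereas Dcn was at 1.55 to 4.58 CPM and Lum at 0.233 to 1.67 CPM. Lists for squamous, airway and simple epithelium, immune, endothelial and neural cells each summed to at most 85.4 CPM in any library. The squamous list summed to 8.89 to 24.5 CPM in siCTRL and 11.5 to 85.4 CPM in siCop1 libraries. The airway list summed to 5.64 to 27.9 CPM in siCTRL and 13.7 to 77.9 CPM in siCop1 libraries, and the immune list to 2.59 to 7.48 and 4.43 to 15.2 CPM. Heart muscle markers, 6 of 7 tested, summed to 1.90 to 93.9 CPM in siCTRL and 1.21 to 3.46 CPM in siCop1 libraries, with median levels of 0 for Myh6, Actc1 and Myl7. Their part in the siCop1 results was not tested. In bulk libraries, fewer cells of a type and less RNA per cell cannot be told apart.

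**Figure D1:**
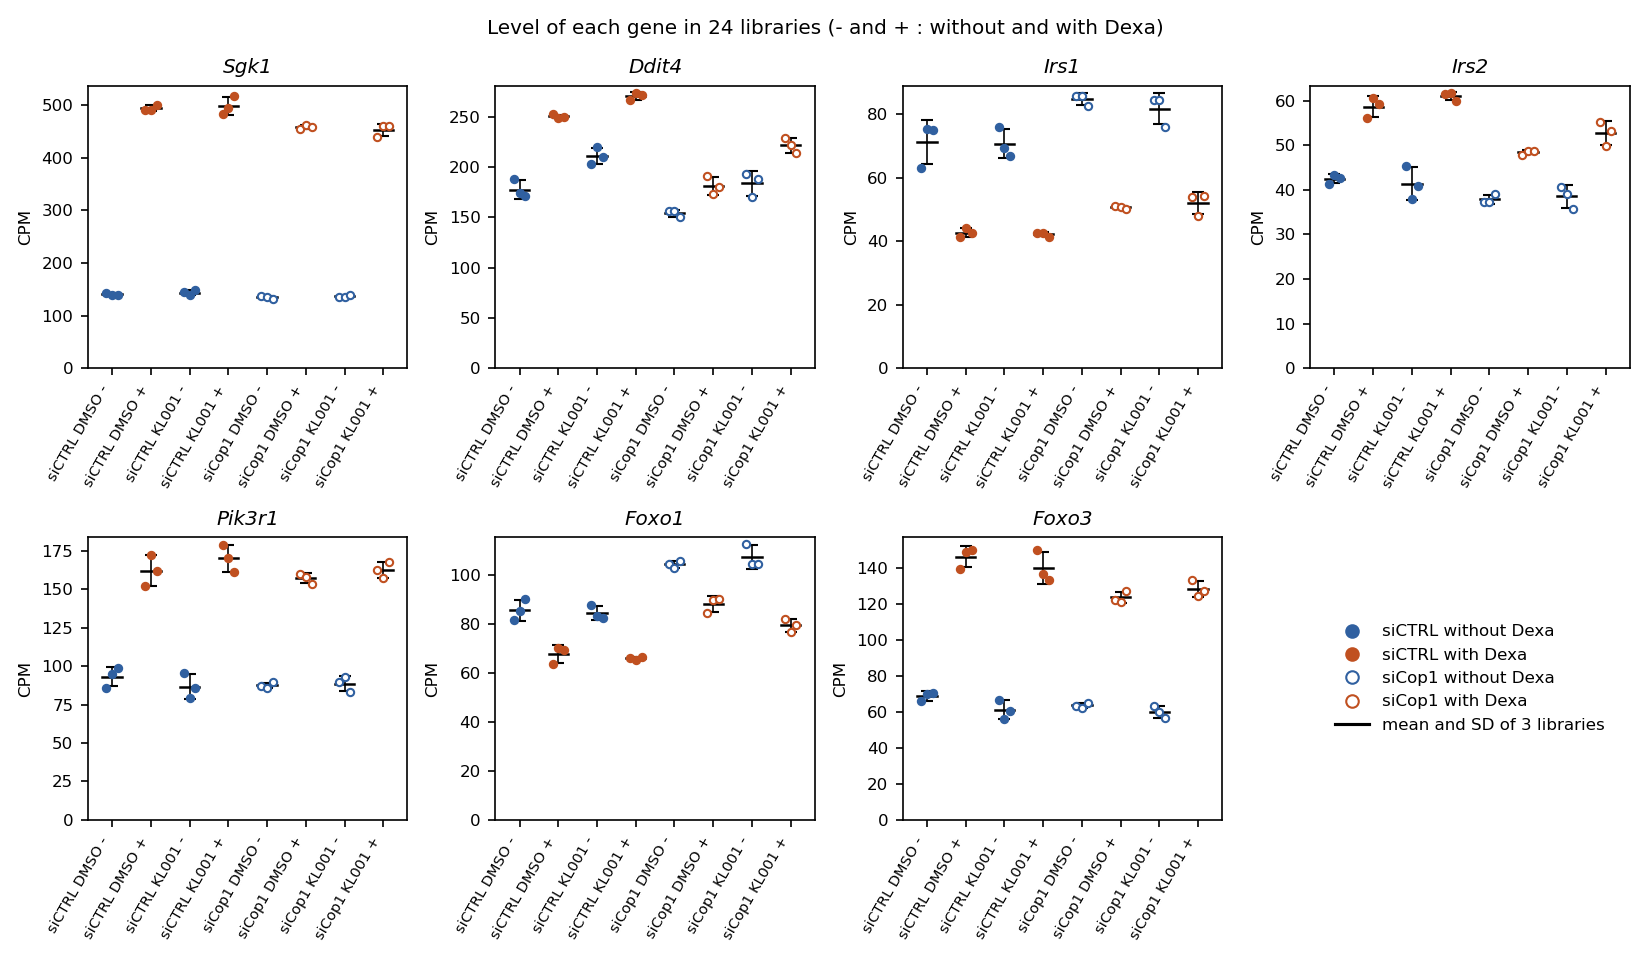
Level of each of the 7 genes in every library, in CPM (scaled counts, linear axes from 0), by group; minus and plus mark libraries without and with Dexa. Points are libraries, filled for siCTRL and open for siCop1, and the bars are the mean and SD of 3 libraries. For Sgk1 the 12 libraries with Dexa sit between 439.6 and 517 CPM, above all 12 without.

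Dexa moved all 7 genes in each of the 4 settings in which it was tested. Sgk1, Foxo3, Pik3r1, Irs2 and Ddit4 rose, and Irs1 and Foxo1 fell. With edgeR's quasi-likelihood test at an adjusted p below 0.05, 7 of 7 members changed in siCTRL cells under DMSO, where 26.8% of all genes tested did. The count was also 7 of 7 in siCTRL cells under KL001 (26.8% of all genes), in siCop1 cells under DMSO (23.7%) and in siCop1 cells under KL001 (24.5%). For the Dexa effect averaged over the 4 settings it was 7 of 7, against 47.1% of all genes. The 7 genes, and the gene lists further below, were chosen with earlier results of these data known. Their counts beside the share of all genes are thus a description and not a test. All 7 were well counted (at least 921 reads in every library), while the genes tested include weakly counted ones. The median log2 change of the 7 members in the averaged effect was 0.46, and that of all genes tested -0.00197. The adipocyte list (Adipoq, Plin1, Fabp4, Cidec, Lep) also moved with Dexa: it summed to 15.8 to 24.3 CPM without and 52.3 to 81.0 CPM with Dexa. Fabp4 was its 1 gene of 5 with enough reads to test, and Adipoq, Plin1, Cidec and Lep each had a median of 0 CPM. The squamous list summed to 10.1 to 19.9 CPM without and 8.89 to 85.4 CPM with Dexa, and the airway list to 10.5 to 47.8 and 5.64 to 77.9 CPM. Whether expression of these lists has a part in the Dexa results was not tested.

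Sgk1, the serum- and glucocorticoid-regulated kinase, had the widest span of the 7 genes. Under siCTRL and DMSO its level was 143, 138 and 138 CPM without Dexa and 490.0, 491 and 499.9 CPM with it. Under siCTRL and KL001 it was 144, 138 and 149 CPM without and 483, 493 and 517 CPM with Dexa. No library with Dexa came near any library without. In siCop1 cells under DMSO the values were 137, 135 and 132 CPM without and 454, 463 and 457 CPM with Dexa. With both siCop1 and KL001 they were 135, 136 and 138 CPM without and 439.6, 459.6 and 459 CPM with Dexa. The siCop1 libraries with Dexa all lay below the siCTRL libraries with Dexa, while both kinds still lay far above those without. The rise with Dexa in siCTRL cells under DMSO was 1.82 on the log2 scale (SE 0.031, adjusted p = 1.85e-27), or 3.53-fold. It was 1.79 in siCTRL cells under KL001, 1.77 in siCop1 cells under DMSO and 1.73 in siCop1 cells under KL001, with adjusted p of at most 5.03e-27 in each. Between the highest and the lowest group mean Sgk1 spanned 1.89 log2 units.

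Of the 7 genes, Sgk1 was the only one whose RefSeq promoter windows held a full palindromic glucocorticoid receptor element. Windows from 250 bases before to 50 bases after each annotated start were searched in the RefSeq sequences of build GRCm38.p6: 13 windows for the 7 genes, of which 6 belong to Sgk1 and 2 to Pik3r1. The motif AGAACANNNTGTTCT, on either strand, was in 3 of all 32851 windows (0.00913%), those of Acnat2, Sgk1 and Gm35041. The shorter form GAACANNNTGTTC, contained in the first, was in 19 windows (0.0578%) and in the same Sgk1 window alone among the members. The Sgk1 match lies at chr10:21993701-21993715 on the plus strand, its first base at position -189 from the start of 1 of the shorter transcripts, and inside the span of the gene's longest transcripts. The stretch is shown because Sgk1 had the largest Dexa response of the 7, and the capitals mark the palindrome (chr10:21993681-21993735, plus strand, 5′ to 3′).
Sgk1 palindrome: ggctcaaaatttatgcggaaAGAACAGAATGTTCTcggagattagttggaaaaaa
A match of letters is a description and not a site bound in these cells. The other 6 genes, which also changed with Dexa, had no such match in these windows, which says only that the letters are not there.

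Irs1 and Irs2, the adaptors that couple the insulin receptor to phosphoinositide 3-kinase, moved in opposite directions with Dexa. Under siCTRL and DMSO, Irs1 was at 63.2, 75.5 and 75.2 CPM without Dexa and 41.5, 44.2 and 42.6 CPM with it. After siCop1 under DMSO it was at 85.9, 85.9 and 82.5 CPM without and 51.1, 50.9 and 50.1 CPM with Dexa. Every Irs1 library with Dexa was below every library without, across all 24. Under KL001, Irs1 was at 76.0, 69.4 and 67.0 CPM without and 42.5, 42.7 and 41.5 CPM with Dexa in siCTRL cells. The corresponding siCop1 values under KL001 were 84.5, 84.6 and 76.1 and 54.1, 48.1 and 54.2 CPM. Its log2 change with Dexa was -0.74 in siCTRL cells under DMSO (SE 0.061, adjusted p = 1.28e-10), which is 0.60 of the level without Dexa. The change was -0.74 in siCTRL cells under KL001, -0.74 in siCop1 cells under DMSO and -0.65 in siCop1 cells under KL001, with adjusted p of at most 9.88e-10 in each.

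Irs2 was at 41.3, 43.3 and 42.7 CPM without Dexa and 56.2, 60.6 and 59.2 CPM with it under siCTRL and DMSO. Under siCTRL and KL001 it was at 45.2, 37.9 and 40.9 CPM without and 61.4, 61.7 and 59.95 CPM with Dexa. Every Irs2 library with Dexa was above every library without. After siCop1 under DMSO the values were 37.3, 37.4 and 39.0 CPM without and 47.8, 48.7 and 48.7 CPM with Dexa. Under siCop1 and KL001 they were 40.7, 39.2 and 35.7 CPM without and 55.2, 49.8 and 53.1 CPM with Dexa. The siCop1 libraries with Dexa lay between the libraries without Dexa and the siCTRL libraries with it. Irs2 rose by 0.47 on the log2 scale in siCTRL cells under DMSO (SE 0.052, adjusted p = 1.8e-08), by 0.56 in siCTRL cells under KL001, by 0.35 in siCop1 cells under DMSO and by 0.45 in siCop1 cells under KL001. The adjusted p was at most 4.44e-06 in each.

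The ratio of Irs2 to Irs1, each as CPM per kilobase of annotated exon, passed from below 1 to above 1 with Dexa. Its place relative to 1 depends on the exon lengths used, 6323 bases for Irs2 and 9144 for Irs1. These join all annotated exons and need not be the length expressed. In plain CPM, siCop1 cells under DMSO with Dexa had means of 48.4 for Irs2 and 50.68 for Irs1. The length-scaled ratio was 0.866 ± 0.0695 without and 1.98 ± 0.0265 with Dexa in siCTRL cells under DMSO (SD, n = 3). Over all 12 libraries without Dexa it ran from 0.628 to 0.946, and over the 12 with Dexa from 1.35 to 2.09. With Dexa the 6 siCop1 libraries (1.35 to 1.5) lay below the 6 siCTRL libraries (1.96 to 2.09), and without Dexa the order was the same (0.628 to 0.696 against 0.789 to 0.946). Both genes overlap annotated genes on the opposite strand, Gm9747 over 2822 bases of Irs1 exon and 9530052E02Rik over 162 bases of Irs2 exon. These had at most 4 and 8 reads in any library, and how the counting treated strand is not given in the sources used here.

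**Figure D2:**
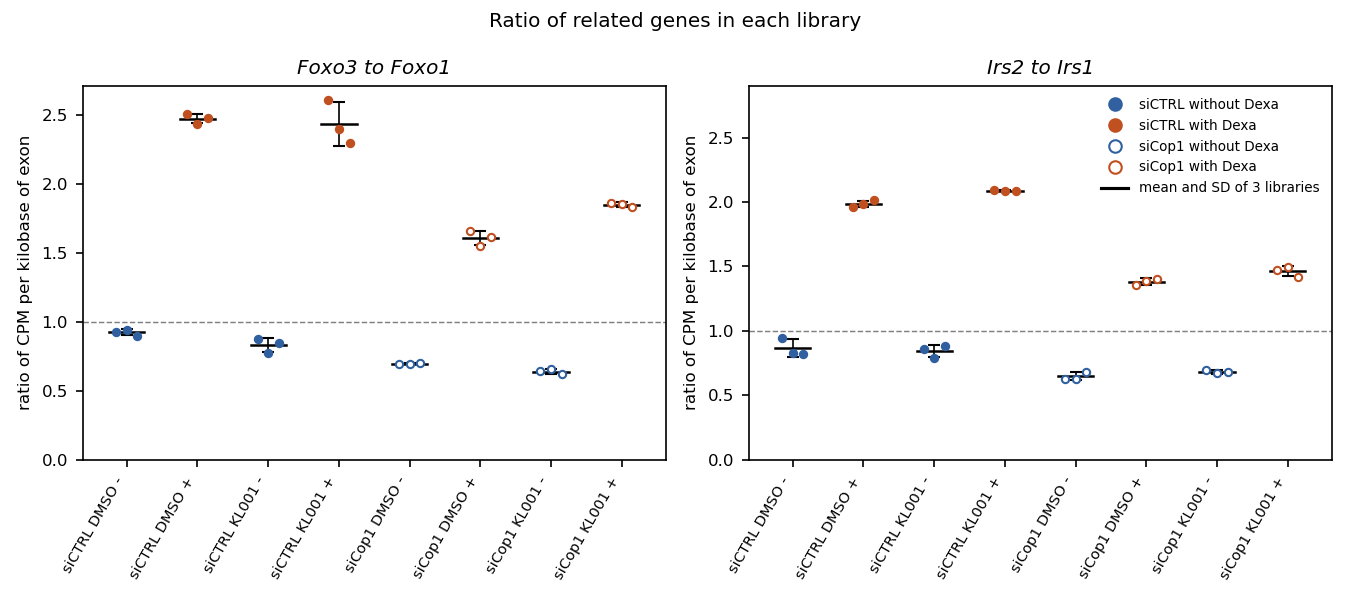
Ratio of Foxo3 to Foxo1 and of Irs2 to Irs1 in each library, each gene as CPM per kilobase of exon (linear axes from 0; the dashed line marks a ratio of 1; bars are the mean and SD of 3 libraries). In both panels all 12 libraries without Dexa lie below 1, and all 12 with Dexa lie above it. The place of a ratio relative to 1 depends on the exon lengths used.

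The promoter windows of Irs1, Irs2 and Sgk1 each held the E-box CACGTG, the core sequence bound by the clock activators CLOCK and BMAL1 that cryptochromes repress. E-boxes were found in 2349 of the 32851 windows (7.15%) and in 3 of the 13 member windows. The stretches are shown because KL001 acts on cryptochromes, and the capitals mark the E-box. They lie at chr1:82291529-82291574 (minus strand), chr8:11008948-11008993 (minus strand) and chr10:21993640-21993669 (plus strand).
Irs1 E-box: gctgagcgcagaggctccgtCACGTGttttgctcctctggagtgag
Irs2 E-box: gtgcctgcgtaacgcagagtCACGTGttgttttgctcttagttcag
Sgk1 E-box: tcctCACGTGttcttggcatggctaggatt
None of these 3 genes passed the test for KL001, as given with the KL001 results. The FoxO motif TGTTTAC (3.65% of windows), the AP-1 motif TGANTCA (7.81%) and the motif TGATGNAA of C/EBP-ATF dimers (3.97%), each searched on both strands, were in none of the 13 member windows.

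Pik3r1 encodes the p85α regulatory subunit of phosphoinositide 3-kinase and 2 shorter forms, which gene counts do not separate. It was at 86.0, 94.97 and 98.6 CPM without Dexa and 152, 172 and 162 CPM with it under siCTRL and DMSO. Under siCTRL and KL001 it was at 95.5, 79.2 and 85.6 CPM without and 179, 170.4 and 161 CPM with Dexa. The gene rose in every setting, and no library with Dexa overlapped one without. In siCop1 cells the values under DMSO were 87.3, 85.9 and 89.4 CPM without and 160.2, 158 and 154 CPM with Dexa. Under siCop1 and KL001 they were 89.5, 92.8 and 83.1 and 162, 157 and 168 CPM. The log2 rise was 0.80 in siCTRL cells under DMSO (SE 0.059, adjusted p = 6.24e-11), 0.97 in siCTRL cells under KL001, 0.85 in siCop1 cells under DMSO and 0.88 in siCop1 cells under KL001. Within the 4 groups with Dexa, and within the 4 without, neighbouring groups in the order of Pik3r1 levels overlapped throughout.

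Foxo3 and Foxo1 encode related forkhead transcription factors that bind the same core motif, and they also moved in opposite directions. Foxo3 was at 66.0, 70.1 and 70.8 CPM without Dexa and 139.6, 149 and 150.5 CPM with it under siCTRL and DMSO. Under siCTRL and KL001 it was at 66.9, 56.1 and 60.8 CPM without and 150.4, 137 and 133 CPM with Dexa. Foxo3 about doubled, and no library with Dexa overlapped one without. In siCop1 cells under DMSO it was at 63.5, 62.5 and 64.9 CPM without and 122, 121 and 127.5 CPM with Dexa. With both siCop1 and KL001 it was at 63.2, 59.97 and 56.6 CPM without and 134, 125 and 127 CPM with Dexa. The rise was 2.12-fold in siCTRL cells under DMSO (log2 1.09, SE 0.052, adjusted p = 4.28e-16). On the log2 scale it was 1.195 in siCTRL cells under KL001, 0.96 in siCop1 cells under DMSO and 1.10 in siCop1 cells under KL001, with adjusted p of at most 1.12e-14.

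Foxo1 was at 81.5, 85.2 and 90.1 CPM without Dexa and 63.8, 70.1 and 69.6 CPM with it under siCTRL and DMSO. Under siCTRL and KL001 it was at 87.6, 83.2 and 82.3 CPM without and 66.0, 65.4 and 66.5 CPM with Dexa. The gene fell in both. In siCop1 cells it started higher, at 105, 103 and 106 CPM under DMSO, and was at 84.6, 89.8 and 90.4 CPM with Dexa. With both siCop1 and KL001 it was at 113, 105 and 105 CPM without and 82.1, 76.9 and 79.5 CPM with Dexa. Dexa lowered Foxo1 within each setting without overlap, but under DMSO siCop1 libraries with Dexa reached the level of siCTRL libraries without it. Under KL001 the siCop1 libraries with Dexa (76.9 to 82.1 CPM) lay just below the siCTRL libraries without it (82.3 to 87.6 CPM). The log2 change was -0.34 in siCTRL cells under DMSO (SE 0.043, adjusted p = 3.01e-07), -0.36 in siCTRL cells under KL001, -0.24 in siCop1 cells under DMSO and -0.43 in siCop1 cells under KL001. An opposite-strand gene, Gm20402, shares 674 bases of Foxo1 exon and had at most 2 reads in any library.

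Per kilobase of exon, Foxo3 and Foxo1 were close without Dexa, at 9.11 ± 0.343 and 9.88 ± 0.5005 CPM in siCTRL cells under DMSO, and apart with it, at 19.3 ± 0.782 and 7.83 ± 0.408 CPM (SD, n = 3). Their ratio was 0.922 ± 0.0216 without and 2.47 ± 0.0356 with Dexa in that setting. Over all 12 libraries without Dexa it ran from 0.619 to 0.942, and over all 12 with Dexa from 1.55 to 2.61. The siCop1 libraries lay lower in both states: 0.619 to 0.702 against 0.772 to 0.942 without Dexa, and 1.55 to 1.86 against 2.30 to 2.61 with it.

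Ddit4, the inhibitor of mTORC1 signalling, was the 1 member called in all 3 averaged effects, those of Dexa, siCop1 and KL001. Under siCTRL and DMSO it was at 188, 174 and 171 CPM without Dexa and 252, 249 and 249.5 CPM with it. Under siCTRL and KL001 it was at 203, 219.7 and 209 CPM without and 266, 273 and 272 CPM with Dexa. Dexa raised Ddit4 under DMSO and under KL001, and KL001 raised it without Dexa. The group with both had the highest mean, but the KL001 rise with Dexa did not pass (edgeR adjusted p = 0.0908). In siCop1 cells under DMSO it was at 156, 156 and 150.2 CPM without and 191, 173 and 179.6 CPM with Dexa. With both siCop1 and KL001 it was at 193, 169.7 and 188 CPM without and 229, 222 and 214 CPM with Dexa. Every siCop1 group lay below its siCTRL counterpart without overlap. With Dexa the log2 change was 0.49 in siCTRL cells under DMSO (SE 0.043, adjusted p = 1.33e-10), 0.36 in siCTRL cells under KL001, 0.23 in siCop1 cells under DMSO (adjusted p = 0.000115) and 0.27 in siCop1 cells under KL001 (adjusted p = 1.18e-05). Over all 24 libraries the levels with and without Dexa overlapped (172.8 to 273 CPM against 150.2 to 219.7 CPM), unlike those of Sgk1, Irs1, Irs2, Pik3r1 and Foxo3. Those of Foxo1 overlapped too (63.8 to 90.4 CPM with and 81.5 to 113 CPM without Dexa). The share of all genes free of such overlap was not computed.

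**Figure D3:**
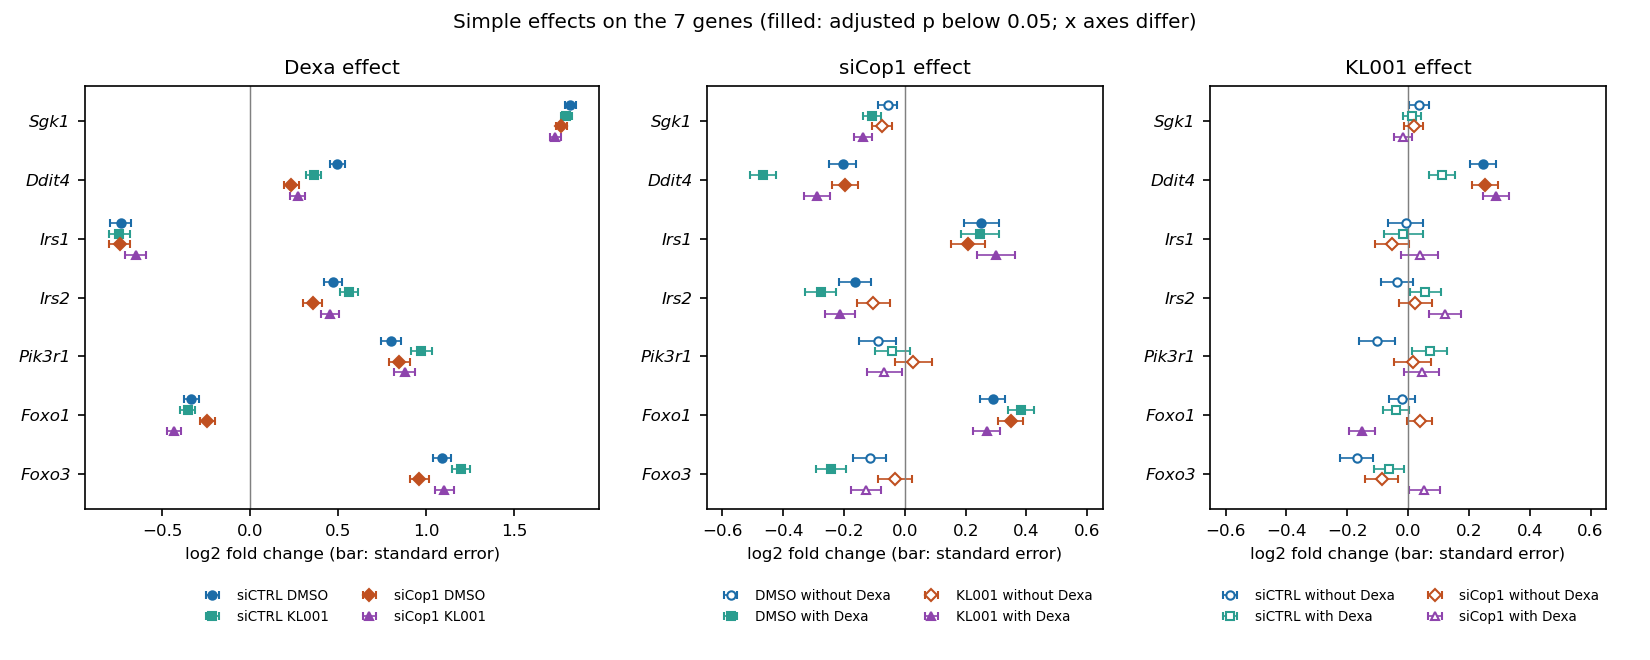
Log2 fold change of each gene for the 4 simple effects of Dexa, siCop1 and KL001 (points; bars are the standard error; filled points had an adjusted p below 0.05; the Dexa axis is wider than the other two). The Dexa points of Sgk1 lie between 1.73 and 1.82, those of Irs1 between -0.74 and -0.65, and in the KL001 panel Ddit4 has 3 filled points.

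Knockdown of Cop1 lowered Ddit4, Irs2, Sgk1 and Foxo3 and raised Foxo1 and Irs1 in the effect averaged over 4 settings. There 6 of the 7 members changed, against 55.7% of all genes, so that most genes tested passed as well. Ddit4 fell by 0.29 on the log2 scale (SE 0.022, adjusted p = 1.67e-12), or to 0.818 of its level. Foxo1 rose by 0.32 (SE 0.021, adjusted p = 1.21e-13) and Irs1 by 0.25 (SE 0.030, adjusted p = 5.14e-08). Irs2 fell by 0.19 (adjusted p = 3.84e-07), Foxo3 by 0.13 (adjusted p = 0.000119) and Sgk1 by 0.09 (adjusted p = 6e-06). These last changes are small beside the Dexa responses of the same genes. Pik3r1 did not pass, with a log2 difference of -0.04 (95% interval -0.105 to 0.02, adjusted p = 0.227). The median over the 7 members was -0.09 and over all genes -0.000546.

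By setting, 4 of 7 members changed with siCop1 under DMSO without Dexa (29.4% of all genes), 6 under DMSO with Dexa (31.1%), 3 under KL001 without Dexa (32.7%) and 5 under KL001 with Dexa (30.1%). Foxo1, Irs1 and Ddit4 passed in all 4. Foxo1 rose by 0.29, 0.38, 0.35 and 0.27 in that order, Irs1 by 0.25, 0.25, 0.21 and 0.30, and Ddit4 fell by 0.20, 0.47, 0.20 and 0.29. Irs2 changed by -0.16, -0.28, -0.10 and -0.21, of which the third did not pass (adjusted p = 0.145). The first, with an adjusted p of 0.0202, lost the call when either siCTRL replicate 2 or 3 or siCop1 replicate 1 or 2 of that comparison was left out (adjusted p 0.0669 to 0.0817). Sgk1 passed only in the 2 settings with Dexa, with log2 changes of -0.11 (adjusted p = 0.00558) and -0.14 (adjusted p = 0.000676), and was at -0.06 and -0.07 in those without; its siCop1 by Dexa terms did not pass. Foxo3 passed under DMSO with Dexa, at -0.24 (adjusted p = 0.000364). Its other values were -0.12, -0.03 and, under KL001 with Dexa, -0.13 (adjusted p = 0.0544). That last value passed without the filter on low counts (adjusted p = 0.01), in the fit on the groups compared (adjusted p = 0.0261), and without siCTRL replicate 3 or siCop1 replicate 1 of its groups (adjusted p 0.0226 and 0.0411). The settings share no libraries, and differences between them are the interaction terms given with Ddit4. In the 3-library groups without Dexa under DMSO, Sgk1 and Foxo3 libraries of siCop1 all lay below those of siCTRL although neither passed. Pik3r1 was at -0.09, -0.04, 0.03 and -0.07, with overlapping groups and adjusted p of at least 0.293 in every setting.

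KL001 raised Ddit4 and, at this threshold, no other of the 7 genes in the averaged effect, where 1 of 7 members and 24.1% of all genes changed. Ddit4 rose by 0.23 on the log2 scale (SE 0.022, 95% interval 0.18 to 0.271, adjusted p = 2.97e-09), or 1.17-fold. The intervals of the others were -0.02 to 0.045 for Sgk1, -0.073 to 0.054 for Irs1, -0.014 to 0.097 for Irs2 and -0.055 to 0.07 for Pik3r1. For Foxo1 the interval was -0.088 to 0.002 and for Foxo3 -0.121 to -0.011, with adjusted p of 0.15 and 0.0664. Taken 1 gene at a time, these 6 intervals for the averaged effect thus reached no further than 0.121 log2 units in either direction. They do not bound single settings: Foxo3 in siCTRL cells without Dexa had an interval of -0.285 to -0.054. Foxo3 moved past the threshold when no filter on low counts was applied (adjusted p = 0.0299) and in the 6 fits that left out replicate 1 of a siCTRL DMSO group or of a KL001 group, 1 at a time (adjusted p 0.0111 to 0.0483).

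In single settings, KL001 changed 1 of 7 members in siCTRL cells without Dexa (6.73% of all genes), 1 in siCop1 cells without Dexa (4.09%) and 2 in siCop1 cells with Dexa (5.46%). Ddit4 was in each of these, with a rise of 0.25 (adjusted p = 0.000338), 0.25 (adjusted p = 0.000305) and 0.29 (adjusted p = 3.82e-05). In siCTRL cells with Dexa edgeR called 0 of 7 (10.6% of all genes). There 1 member and 23.3% of all genes were below an unadjusted p of 0.05, and DESeq2 called 0 members. Ddit4 was there at 0.11 (95% interval 0.023 to 0.202, adjusted p = 0.0908), with all 3 KL001 libraries above the 3 DMSO libraries. It passed in that setting when the fit held only the groups compared (adjusted p = 0.0351) and without the filter on low counts (adjusted p = 0.0456). Foxo1 was the second gene in siCop1 cells with Dexa, at -0.15 (SE 0.043, adjusted p = 0.0319), and lost the call without replicate 2 or 3 of either group (adjusted p 0.0964 to 0.17). Its value was -0.02 in siCTRL cells without Dexa, -0.04 in siCTRL cells with Dexa and 0.04 in siCop1 cells without Dexa. Foxo3 in siCTRL cells without Dexa was at -0.17 (adjusted p = 0.0592). It passed there under DESeq2 (adjusted p = 0.0476), without the filter (adjusted p = 0.0107), and without replicate 1 of either group (adjusted p 0.0445 and 0.00624). Its other values were -0.06, -0.09 and 0.05.

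The response of Ddit4 to Dexa was smaller in siCop1 than in siCTRL cells under DMSO. The interaction term, the log2 change with Dexa in siCop1 cells minus that in siCTRL cells, was -0.26 (SE 0.061, adjusted p = 0.0316). Ddit4 was the 1 member of 7 past the threshold for it, where 0.67% of all genes passed. The call was lost in 7 of the 12 fits that left out 1 library (adjusted p 0.0508 to 0.139): those without siCTRL replicate 2 or 3 without Dexa, siCTRL replicate 3 with Dexa, siCop1 replicate 1 or 2 without Dexa, or siCop1 replicate 2 or 3 with Dexa. The estimate itself ran from -0.32 to -0.23 over the 12 fits. Under KL001 the same term was -0.09 for Ddit4 (adjusted p = 0.826). The siCop1 by KL001 term in cells with Dexa, which shares the libraries with Dexa, was 0.18 (adjusted p = 0.456). Outside the 7 genes, Fkbp5 passed for the siCop1 by Dexa term, at -0.76 under DMSO and -0.64 under KL001 (edgeR adjusted p = 2.06e-11 and 1.01e-09). Tsc22d3 passed in neither, at 0.11 in both.

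For the other interactions, edgeR called 0 of 7 members. Under KL001 the siCop1 by Dexa term passed for 0.562% of all genes, with 0 members and 7.67% of genes below an unadjusted p of 0.05. The KL001 by Dexa term in siCTRL cells passed for 0% of genes, and DESeq2 called 3 genes. Below an unadjusted p of 0.05 were 2 members and 888 genes (6.01%). In siCop1 cells the KL001 by Dexa term passed for 0.0677% of genes, with 1 member and 4.54% of genes below an unadjusted p of 0.05. The siCop1 by KL001 term without Dexa passed for 0% of genes, and DESeq2 called 15 genes. Below an unadjusted p of 0.05 were 0 members and 982 genes (6.65%). With Dexa the siCop1 by KL001 term passed for 0.0677% of genes, with 1 member and 6.93% of genes below an unadjusted p of 0.05. DESeq2 called 0 members in each of these 5.

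**Figure D4:**
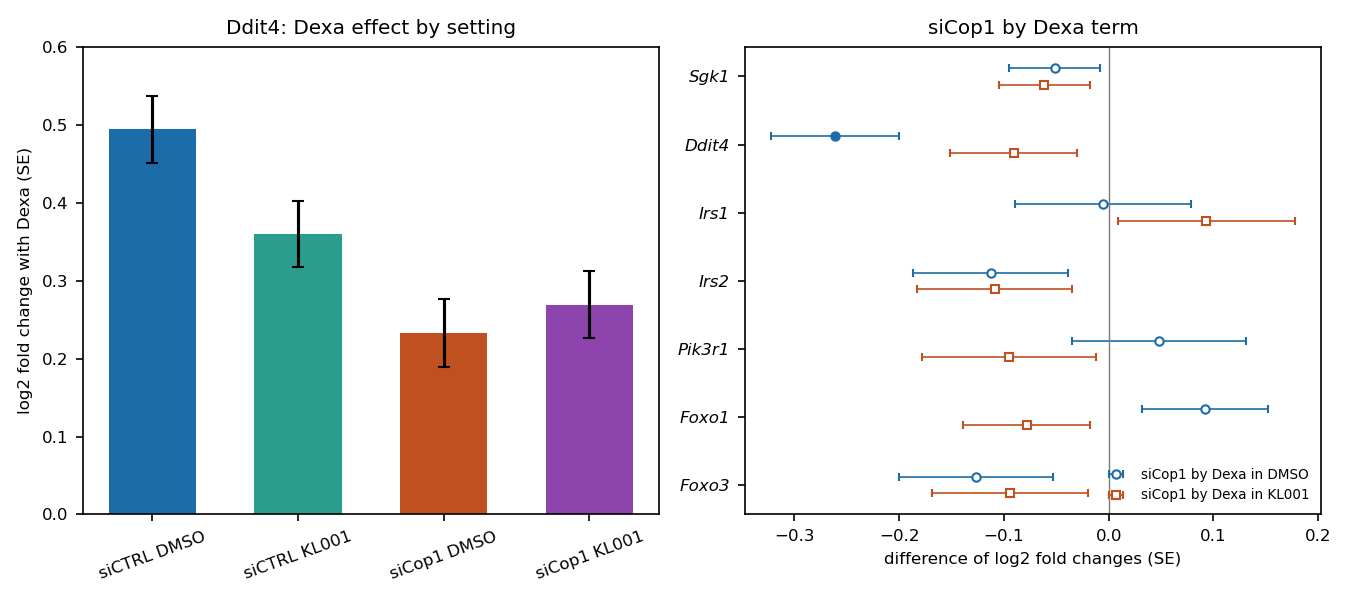
Left, log2 change of Ddit4 with Dexa in each setting (bars from 0, error bars are the standard error). Right, difference of the Dexa effect between siCop1 and siCTRL cells for the 7 genes, under DMSO (circles) and KL001 (squares), with standard errors; the 1 filled point, Ddit4 under DMSO at -0.26, had an adjusted p below 0.05.

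Across the 8 groups the members differed in how finely their levels were ordered. Ddit4 ran from 154 ± 3.38 CPM in siCop1 cells under DMSO without Dexa to 270.5 ± 3.72 CPM in siCTRL cells under KL001 with Dexa (SD, n = 3), and 4 of the 7 steps between neighbouring groups were free of overlap. Sgk1 had its groups in 3 sets: the 2 siCTRL groups with Dexa (means 494 and 498 CPM), the 2 siCop1 groups with Dexa (458 and 453 CPM), and the 4 groups without Dexa (134.6 to 143.6 CPM), within which neighbours overlapped. Irs1 fell into 4 pairs, each holding the DMSO and KL001 groups of 1 siRNA and Dexa state, with overlap inside a pair and none between neighbouring pairs. Foxo1 was highest in the siCop1 groups without Dexa (107.4 and 104.5 CPM) and lowest in the siCTRL groups with Dexa (67.8 and 66.0 CPM). Between the lowest and highest group mean, the span on the log2 scale was 1.29 for Foxo3, 1.004 for Irs1, 0.98 for Pik3r1, 0.81 for Ddit4, 0.70 for Foxo1 and 0.69 for Irs2. Per kilobase of exon in siCTRL cells under DMSO without Dexa, Ddit4 was the most abundant at 101 ± 5.17 CPM, followed by Sgk1 at 28.6 ± 0.619 CPM (SD, n = 3). The other 5 lay between 6.71 CPM (Irs2) and 9.88 CPM (Foxo1).

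Pearson's r between pairs of members over the 8 group means of log2 CPM is given as a description only, since all genes come from the same libraries and the 8 groups combine the same 3 factors. It was 0.996 for Sgk1 and Pik3r1, 0.991 for Sgk1 and Foxo3, -0.982 for Irs1 and Irs2 and 0.895 for Irs1 and Foxo1. Ddit4 was less close to Sgk1 (0.697) than to Irs2 (0.869). The genes whose centred log2 group means lay nearest to each member were found among 9358 genes with a mean of at least 10 CPM, by the root mean square difference over the 8 groups. For Foxo3 the nearest was Klf9, a Krüppel-like repressor, at 0.0395. For Pik3r1 it was Shroom3 (0.0466), followed by Nfkbia (0.0734), the inhibitor of NF-kB. For Sgk1 it was Foxred2 (0.0662), for Irs1 Rdh10 (0.0418), a retinol dehydrogenase, and for Irs2 Stim1 (0.033), the calcium sensor of the endoplasmic reticulum. For Foxo1 it was Nrp1 (0.0383), a co-receptor of VEGF and semaphorins, followed by Spry2 (0.0475), an inhibitor of receptor tyrosine kinase signalling. For Ddit4 it was Slc25a30 (0.0717), a mitochondrial carrier.

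Other genes of insulin and mTOR signalling, a list of 47 that holds none of the members, changed widely, and more of them fell than rose with Dexa. In the averaged Dexa effect 32 of 47 changed (68.1%, against 47.1% of all genes), 8 up and 24 down, with a median log2 change of -0.06. Sesn1, a sestrin that restrains mTORC1, was at 48.6 to 58.7 CPM in the 12 libraries without Dexa and 226 to 259 CPM in the 12 with it, a rise of 2.16 on the log2 scale (SE 0.020, adjusted p = 5.06e-35). Deptor, an inhibitory partner of mTOR, rose by 1.01 (109 to 155 CPM without, 220.3 to 302 CPM with Dexa). Mtor itself rose by 0.89 (74.3 to 107 CPM without, 129.5 to 201 CPM with Dexa). Inpp5k, a phosphatase that removes the lipid made by phosphoinositide 3-kinase, rose by 0.71. All 4, named for having the largest rises, had libraries with Dexa above every library without. As above, the share of all genes free of such overlap was not computed. The largest falls that met the naming rule were Foxo6, a further forkhead factor, at -0.88, Sesn3 at -0.47, Pik3r3, which encodes another regulatory subunit of phosphoinositide 3-kinase, at -0.43, and Ddit4l, the paralog of Ddit4, at -0.38. Pik3r3 was at 108.9 to 129.7 CPM without and 78.8 to 97.2 CPM with Dexa, opposite to Pik3r1. Sesn3 was opposite to Sesn1, and Ddit4l to Ddit4, whose averaged change was 0.34.

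In the averaged siCop1 effect 34 of the 47 changed (72.3%, against 55.7% of all genes), 17 in each direction, with a median of 0.01. The kinase Sgk3 rose by 0.49, Sesn3 by 0.37 and Mtor by 0.35. Trib3, a pseudokinase of the Tribbles family that binds AKT, fell by 0.78 (137.6 to 219.9 CPM in siCTRL, 78.3 to 129 CPM in siCop1 libraries; adjusted p = 4.79e-24). Its siCop1 libraries all lay below its siCTRL libraries, a separation whose share over all genes was not computed either. Eif4ebp1, the translational repressor that mTORC1 inactivates, fell by 0.36, Pik3cd, a catalytic subunit, by 0.30 and Insr, the insulin receptor, by 0.26. In the averaged KL001 effect 14 changed (29.8%, against 24.1% of all genes), 9 up and 5 down, with a median of 0.01. Trib3 rose by 0.24 and Sesn2 by 0.18, and Trib2 fell by 0.21.

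**Figure D5:**
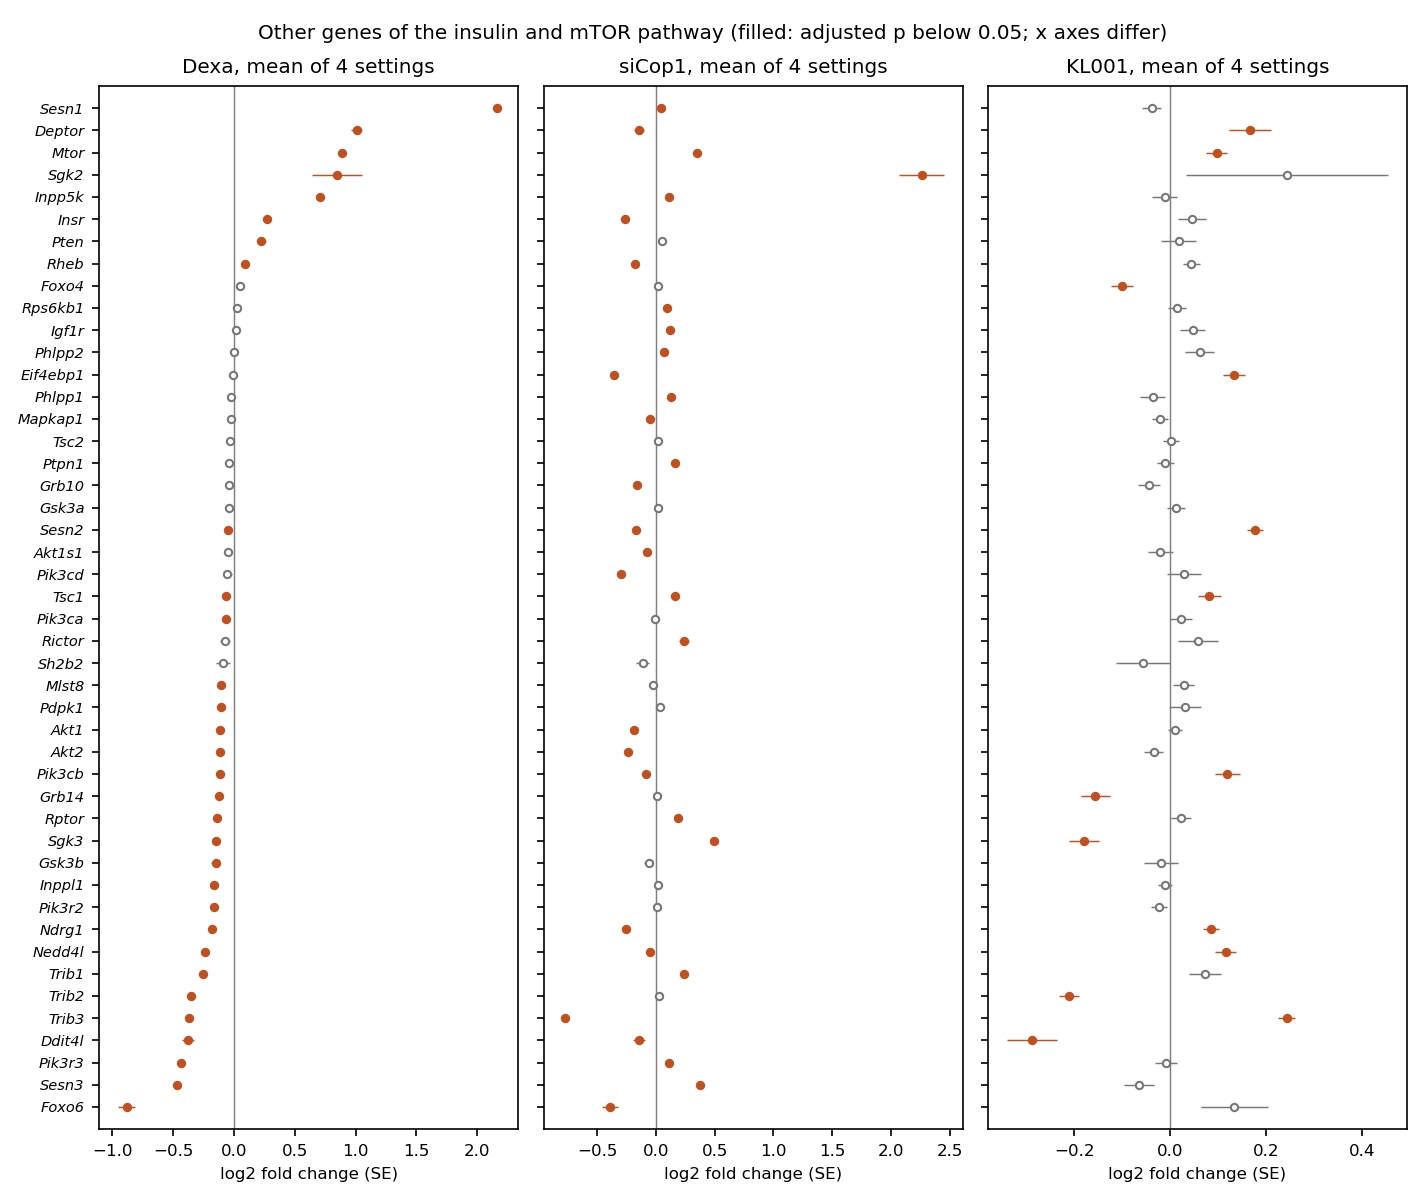
Averaged log2 change of 46 of the 47 other pathway genes with Dexa, siCop1 and KL001 (points; bars are the standard error; filled points had an adjusted p below 0.05; the x axes differ), ordered by the Dexa effect. In the Dexa panel 8 filled points lie above 0 and 23 below, and Sgk2, whose mean level was below the minimum of 1 CPM for naming, has the widest bars.

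Known FoxO target genes, a list that holds induced and repressed targets, changed in both directions with Dexa. Of 26 genes on the list 22 could be tested; Pck1, G6pc, Igfbp1 and Tnfsf10 had too few reads. Sesn1, Sesn3, Insr and Rictor are on both lists. In the averaged Dexa effect 16 of 22 changed (72.7%, against 47.1% of all genes), 9 up and 7 down. Pdk4, the kinase that inhibits pyruvate dehydrogenase, was at 1.77 to 3.85 CPM without and 29.5 to 39.1 CPM with Dexa, a rise of 3.48 on the log2 scale (SE 0.044, adjusted p = 1.21e-31). Trim63, a ubiquitin ligase of muscle atrophy, rose by 2.27 from a median of 0.478 to 2.37 CPM, and Klf2 rose by 0.48. Fbxo32, the other ligase known from muscle atrophy, fell by 0.26, as did the growth-arrest gene Gadd45a by 0.35. Ccnd2, a cyclin that FoxO factors repress, fell by 0.48 (708.6 to 1015 CPM without, 520.2 to 696 CPM with Dexa).

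In the averaged siCop1 effect 18 of the 22 changed (81.8%, against 55.7% of all genes), 10 up and 8 down. Bcl2l11, which encodes the pro-apoptotic BIM, rose by 0.27, Fbxo32 by 0.26 and Ccng2, cyclin G2, by 0.23. Ccnd2 fell by 0.26, Gadd45a by 0.23 and the autophagy gene Gabarapl1 by 0.12. In the averaged KL001 effect 12 changed (54.5%, against 24.1% of all genes), 5 up and 7 down. Cat, which encodes catalase, rose by 0.11 and was the only target that met the naming rule there. In single settings the split was most uneven, among those with at least 10 changed, for siCop1 under KL001 with Dexa, with 11 up and 3 down of 22 (30.1% of all genes changed), and for KL001 in siCTRL cells with Dexa, with 1 up and 9 down (10.6% of all genes). Both comparisons hold the siCTRL libraries with KL001 and Dexa, with opposite sign, so their splits are not separate results. Without that group, siCop1 under DMSO with Dexa gave 7 up and 7 down (31.1% of all genes changed). KL001 in siCop1 cells with Dexa gave 3 up and 0 down (5.46% of all genes), too few to compare a split.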

How the data were processed

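RNA was sequenced in 24 libraries made with a stranded mRNA kit, per the labels' protocols. The deposited values are raw read counts per gene; the submitters' processing notes name STAR 2.4.5a, featureCounts (Subread 1.4.6-p3) and build GRCm38. The deposited normalized table was not used. Counts were fitted with edgeR 4.0.16 (R 4.3.3): TMM scaling, filterByExpr (minimum count 10, minimum total 15), 1 mean per group over all 24 libraries, robust quasi-likelihood F tests, and Benjamini-Hochberg adjustment over 14772 genes within each of 21 comparisons. CPM use the same scaling. "Changed" means an adjusted p below 0.05; 95% intervals use 16 residual degrees of freedom and cover the spread between libraries. The test was checked on simulated data.

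Genes were matched by symbol. Promoter windows came from RefSeq (GRCm38.p6), exon lengths and spans from GENCODE (GRCm38). From each list up to 4 higher and 4 lower genes were named for each averaged effect: those with the largest change that changed the same way in at least 3 of 4 settings, with a mean of at least 1 CPM. The values of 1 pathway gene are not reported here; it stays in the list's counts. Members and lists were chosen with earlier results of these data known. Replicates differed beyond counting noise (chi-square per degree of freedom 1.56 to 8.76) and none were merged. The pairs differed most in siCTRL cells under KL001 without Dexa (3.99 to 8.76). In siCTRL cells under DMSO, pairs with replicate 1 were at 4.73 to 5.68. Pairs of siCop1 libraries were at 1.56 to 3.87. The main fit shares its estimate of the spread of a gene over all groups.

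Replicate numbers recur in all groups. Over 12 simple comparisons the 36 correlations of same-numbered libraries ran from -0.413 to 0.654. All 3 pairs exceeded 0.1 in 2 comparisons, Dexa in siCTRL cells under KL001 and KL001 in siCTRL cells with Dexa. Both hold the siCTRL libraries with KL001 and Dexa. For KL001 in siCTRL cells without Dexa the values were -0.413, -0.312 and -0.017. The labels state no pairing, so whether the numbers pair libraries in the 2 comparisons above 0.1 was not settled. Count columns of the same siRNA and replicate number share a name stem, whose meaning is not given. The replicate block used below joins siCTRL and siCop1 libraries of the same number. A block within each siRNA was not run. Results were recomputed with DESeq2 1.42.0, with RLE scaling, without the filter, with a replicate block, in a fit restricted to the groups compared, and with each library left out in turn.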

Additional observations from a re-analysis of the deposited data

Results flagged for a closer look

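Ddit4 had a Dexa effect that differed between siCTRL and siCop1 cells under DMSO. The difference was -0.26 on the log2 scale (SE 0.061, edgeR adjusted p = 0.0316), from a rise of 0.49 in siCTRL cells to a rise of 0.23 in siCop1 cells. The mean level with Dexa was 250.2 ± 1.93 CPM in siCTRL and 181 ± 9.28 CPM in siCop1 libraries, and without Dexa it was 178 ± 9.08 and 154 ± 3.38 CPM (SD, n = 3). The adjusted p ran from 0.00789 to 0.139 over the 12 fits that each left out 1 library.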

How the results depend on the processing

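All 35 Dexa values of the members kept their direction and their call under every alternative run, as did 62 of 65 called member values; the 3 exceptions are Irs2 with siCop1 under DMSO without Dexa, Foxo1 with KL001 in siCop1 cells with Dexa and the Ddit4 interaction, all of which lost the call in some fits without 1 library (values in the report). Of the member values not called, 27 were recomputed gene by gene, and 6 of them turned sign when 1 library was left out; the others were recomputed only within the counts of members changed. With siCop1 under KL001 without Dexa, Pik3r1 ran from -0.034 to 0.102 and Foxo3 from -0.0923 to 0.0347. With KL001, Foxo1 ran from -0.0557 to 0.0196 in siCTRL and from -1e-04 to 0.0572 in siCop1 cells without Dexa. In the averaged KL001 effect Irs1 ran from -0.0305 to 0.0043 and Pik3r1 from -0.0116 to 0.0224.

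The number of members changed with KL001 in siCTRL cells without Dexa was 2 without the filter and 2 under DESeq2 (Foxo3 joined), and 1 to 2 over the fits without 1 library. In siCTRL cells with Dexa it was 1 without the filter and 1 in the fit on the groups compared. In the averaged KL001 effect it was 2 without the filter and 1 to 2 over the fits without 1 library, as for KL001 in siCop1 cells with Dexa. The count ran from 3 to 5 for siCop1 under KL001 without Dexa, where Sgk1 and Irs2 joined without siCTRL replicate 2, and from 0 to 1 for siCop1 by Dexa under DMSO.

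With the replicate number as a block, the number of members changed was the same in all 21 comparisons, 7 of 7 for the averaged Dexa effect among them, and no member call changed. Over all genes the replicate block moved the count from 10 to 5 for KL001 by Dexa in siCop1 cells and from 10 to 5 for siCop1 by KL001 with Dexa. DESeq2 gave 24 for the latter. The fit on the groups compared gave 225 genes instead of 994 for KL001 in siCTRL cells without Dexa, 950 instead of 604 in siCop1 cells without Dexa, 1435 instead of 807 in siCop1 cells with Dexa, 52 instead of 83 for siCop1 by Dexa under KL001 and 24 instead of 10 for KL001 by Dexa in siCop1 cells. The cause was not tested. With 3 libraries a group, the precision of a simple effect is limited to the standard errors given.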
